A study of Mus musculus with 140 samples.

Results

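The 10 genes described here are factors and markers of the pluripotency network of mouse embryonic stem cells. The question asked of them was how many silencers each has in and around it. Members were chosen by name: Pou5f1, Sox2, Nanog, Klf4, Myc, Esrrb, Klf5, Tfcp2l1, Zfp42 and Fbxo15. Their silencers were all intervals of the 2 deposited silencer lists that overlapped the gene body plus 10 kb on each side by at least 1 bp, a stretch called the territory below. There were 48 such intervals of 204761 in all. The mESC list gave 27 of its 115165 intervals and the MEF list gave 21 of its 89596.

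The study used Ss-STARR-seq, a reporter assay in which genomic fragments are cloned into a plasmid, the plasmids are transfected, and the reporter RNA is sequenced to find fragments that lower transcription. Its 140 libraries comprised 56 of reporter RNA from mESCs, 64 of reporter RNA from MEFs, and 20 of the input plasmids. The titles group the mESC libraries into 3 numbered output sets and the MEF libraries into 4. The mESCs were mouse embryonic stem cells grown in N2B27 medium with LIF and the 2i inhibitors, and the MEFs were mouse embryonic fibroblasts grown in DMEM with serum. The labels name no genotype, strain or age for either cell type. Only 1 interval list per cell type was analysed, so mESC and MEF differences lack a replicate check. The lists hold no expression values, so the cell types could not be checked against their marker genes.

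Pluripotent cells are held in their state by transcription factors that bind their own and each other's enhancers, with OCT4 (the product of Pou5f1), SOX2 and NANOG at the centre. OCT4, SOX2, KLF4 and MYC together can return fibroblasts to pluripotency, and most of the network is silent in fibroblasts, although Myc and Klf4 are active in many dividing or differentiated cells. Esrrb, Klf5 and Tfcp2l1 encode factors that sustain the naive state in LIF and 2i, and Zfp42 and Fbxo15 are genes commonly used to mark it.

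Sequences of 6 intervals and 1 region common to both lists are given first, as examples of the listed DNA. They come from Pou5f1, Nanog, Tfcp2l1 and Zfp42 alone and do not stand for all member intervals. All are on the plus strand of mm10 (GRCm38.p6), run from the listed start to the base before the listed end, and are named by the distance of the interval's midpoint from the gene start. Capitals mark 2 kinds of match. One is a KLF site, GGGNGTGG on either strand. The others are 3 words of the consensus of B1, a short interspersed repeat that is very common in the mouse genome: ATCCCAGCA, CCAGCCTGG and GACAGCCAG, on either strand. The B1 words were chosen after the sequences had been seen.

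At Pou5f1 the upstream mESC interval at chr17:35501351-35501400 is shown, the one with the highest fold at this gene. It held no marked match.
Pou5f1 mESC -4.64 kb: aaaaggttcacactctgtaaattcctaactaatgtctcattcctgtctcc

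At Nanog the common region of an overlapping pair at chr6:122704401-122704600 is shown, chosen after the values were seen, with the MEF intervals at chr6:122705551-122705650 and chr6:122709101-122709400. The common region held B1 word CCAGCCTGG, and the other sequences held no marked match.
Nanog both lists -2.99 kb: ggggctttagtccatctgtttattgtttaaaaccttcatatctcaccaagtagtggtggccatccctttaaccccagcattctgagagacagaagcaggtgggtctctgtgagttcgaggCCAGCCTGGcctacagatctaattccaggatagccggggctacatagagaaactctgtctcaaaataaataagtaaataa
Nanog MEF -1.89 kb: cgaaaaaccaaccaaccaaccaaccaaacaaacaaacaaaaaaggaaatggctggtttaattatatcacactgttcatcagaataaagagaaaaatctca
Nanog MEF 1.76 kb: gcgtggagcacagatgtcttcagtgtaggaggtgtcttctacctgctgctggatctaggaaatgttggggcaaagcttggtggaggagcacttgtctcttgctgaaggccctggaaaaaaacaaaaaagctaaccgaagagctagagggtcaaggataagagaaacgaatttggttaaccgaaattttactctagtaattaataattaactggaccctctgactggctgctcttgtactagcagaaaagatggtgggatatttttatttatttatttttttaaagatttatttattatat

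The Tfcp2l1 MEF interval at chr1:118653851-118654050 is shown because an mESC interval of the same length starts 2 bp before it. The Zfp42 intervals at chr8:43289141-43289390 (mESC) and chr8:43291086-43291185 (MEF) are shown as the nearest ones of each list. The Zfp42 mESC sequence ended with a KLF site, and the others held no marked match.
Tfcp2l1 MEF 26.01 kb: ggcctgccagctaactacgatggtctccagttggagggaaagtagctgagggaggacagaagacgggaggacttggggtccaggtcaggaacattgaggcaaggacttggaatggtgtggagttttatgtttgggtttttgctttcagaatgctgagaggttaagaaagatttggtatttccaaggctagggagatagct
Zfp42 mESC 17.7 kb: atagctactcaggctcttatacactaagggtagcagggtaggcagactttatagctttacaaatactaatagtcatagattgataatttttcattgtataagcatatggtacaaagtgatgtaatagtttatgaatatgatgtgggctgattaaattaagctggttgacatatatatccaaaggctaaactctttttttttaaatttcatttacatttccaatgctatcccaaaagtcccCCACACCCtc
Zfp42 MEF 15.8 kb: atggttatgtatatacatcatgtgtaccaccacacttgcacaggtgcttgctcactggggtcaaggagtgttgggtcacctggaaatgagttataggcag

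The 10 territories covered 0.517 Mb. An mESC interval lay in 9 of the 10 territories, where 75.5% of 21938 protein-coding genes had one. A MEF interval lay in 7 of the 10, against 68.5% of protein-coding genes. Of the members, 5 had more mESC than MEF intervals, which was so for 55.6% of the 17989 protein-coding genes with any interval. Nanog, Esrrb and Zfp42 had more MEF intervals, as had 24.3% of those genes. Myc had 1 of each and Klf4 had none. These counts over 10 genes lie close to the background of all protein-coding genes.

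**Figure D1:**
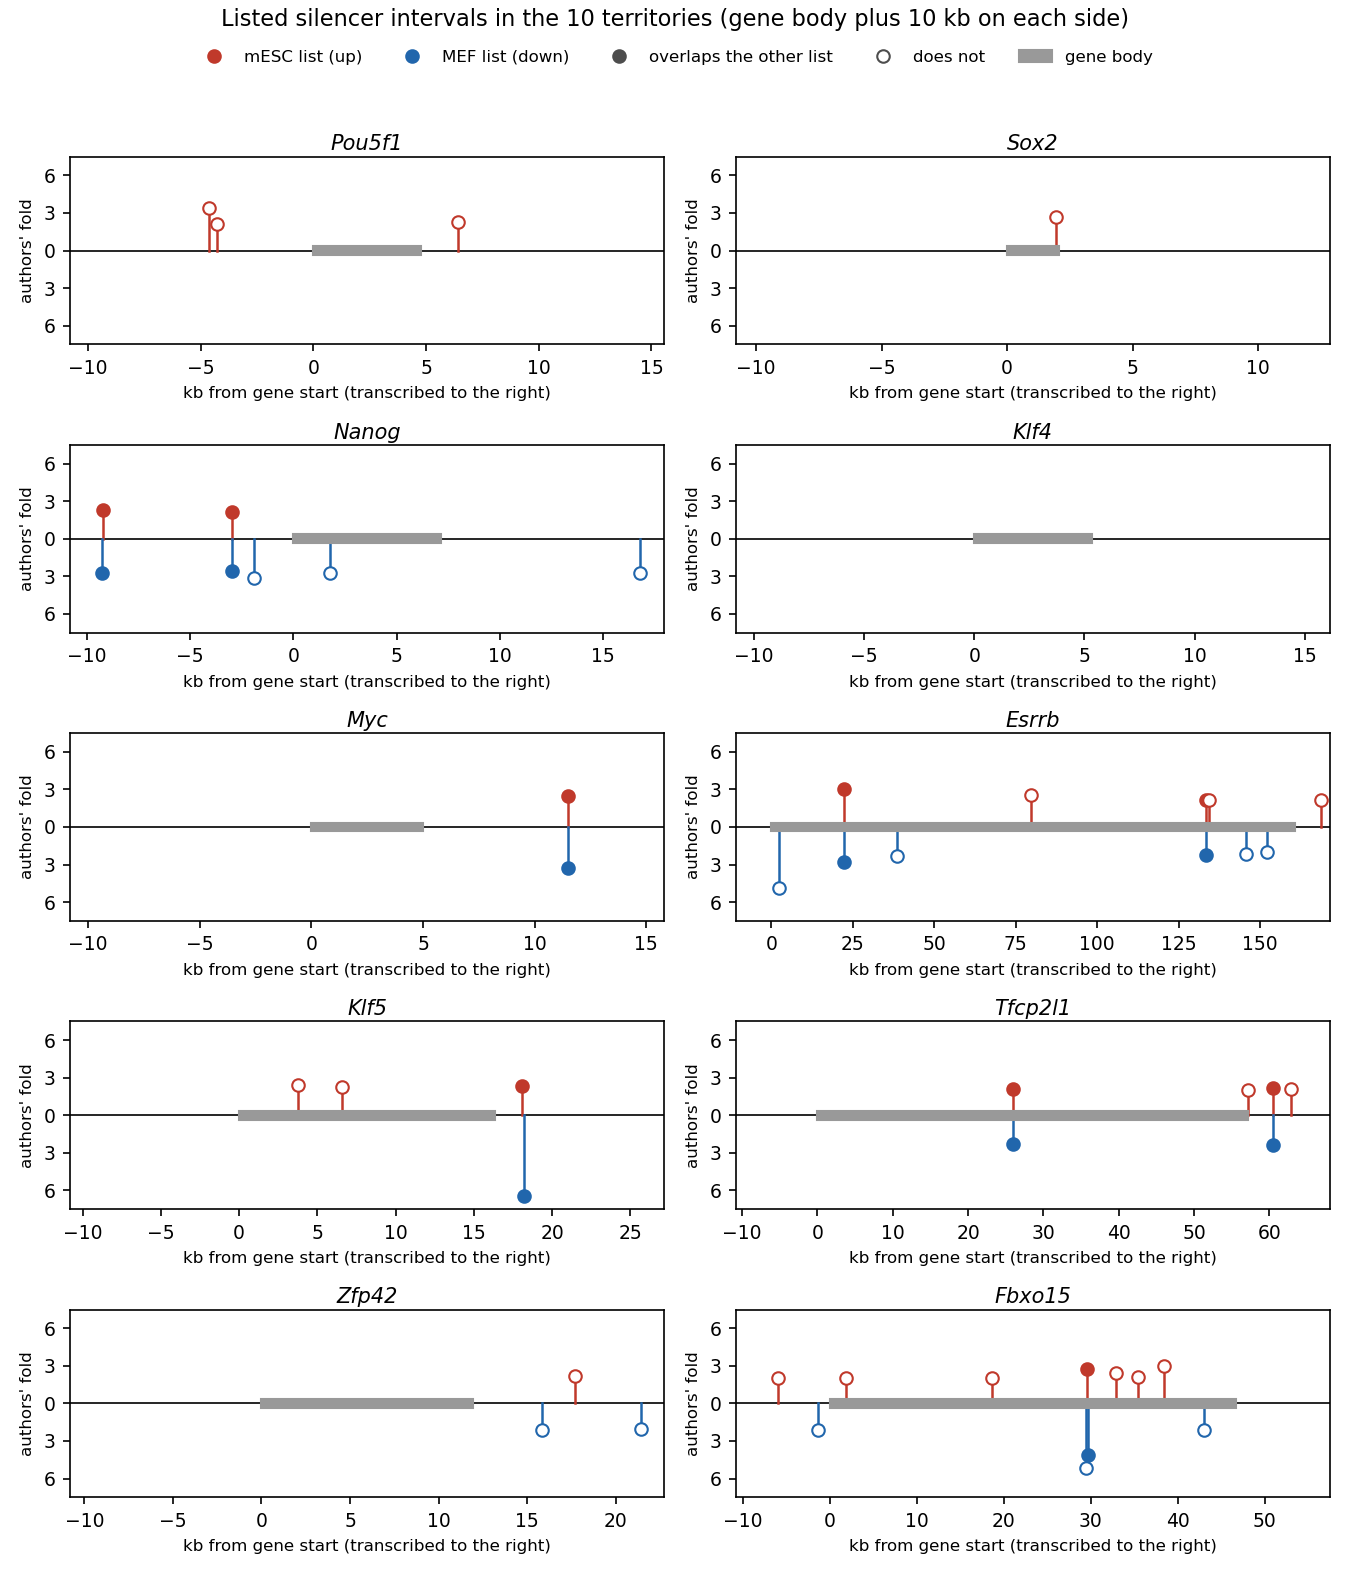
Listed silencer intervals at each gene, plotted by the distance of their midpoint from the gene start (kb, horizontal) and the authors' fold (vertical, linear), with mESC intervals drawn up and MEF intervals drawn down. Filled points overlap an interval of the other list, open points do not, and grey bars are gene bodies. Pou5f1 and Sox2 have mESC points alone, Klf4 has none, and the point farthest from the zero line is the MEF interval beyond the end of Klf5 at a fold of 6.42.

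Among the core factors, Pou5f1 and Sox2 had intervals in the mESC list alone, whereas Nanog had more in the MEF list. Pou5f1, which encodes the POU factor OCT4 (chr17:35506018-35510772, plus strand), had 3 mESC and 0 MEF intervals. A 50 bp interval 4.64 kb upstream of the gene start had an authors' fold of 3.43, at the 86.3 percentile of the mESC list. The 300 bp interval beside it, 4.27 kb upstream, had a fold of 2.13. The last lay at chr17:35512401-35512451, beyond the gene's end, with a fold of 2.30. At 121 mESC intervals per Mb, the Pou5f1 territory was denser than those of 93.4% of protein-coding genes. This rank rests on 3 intervals in 24.8 kb, where each interval moves the density by a large step. Genes with territories of 20 to 40 kb had a median of 1 mESC interval. Its nearest MEF interval was 30.4 kb upstream. The stretch of 3 kb upstream of the gene start, which holds its well-studied proximal and distal enhancers, contained 0 intervals of either list. All protein-coding territories had 48.3 mESC and 36.9 MEF intervals per Mb, and at those densities most stretches of 3 kb hold none.

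Sox2, the HMG-box partner of OCT4 (chr3:34650405-34652461, plus strand), had 1 mESC and 0 MEF intervals. The mESC interval (chr3:34652311-34652361, 50 bp, fold 2.71) overlapped the 3 prime UTR of Sox2 and the overlapping noncoding gene Sox2ot. The nearest MEF interval was 31 kb downstream of the gene start. Farther away, the stretch from 100 to 120 kb downstream, which holds the distal enhancer cluster known as the Sox2 control region, contained 1 mESC interval and 0 MEF intervals. That mESC interval (chr3:34758351-34758901) was 550 bp long and had a fold of 2.43. This window was chosen after the counts were seen. At the densities of all protein-coding territories, counts of 0 or 1 per list in 20 kb are common.

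Nanog, a homeobox factor (chr6:122707489-122714633, plus strand), had 2 mESC and 5 MEF intervals. Its MEF density of 184 intervals per Mb exceeded that of 99.7% of protein-coding genes, and its mESC density of 73.7 per Mb exceeded that of 76.1%. These ranks rest on few intervals in a short territory of 27.1 kb. Genes with territories of 20 to 40 kb had a median of 1 MEF interval. Both mESC intervals, 9.21 kb upstream (fold 2.26) and 2.96 kb upstream (fold 2.11), overlapped a MEF interval, with MEF folds of 2.72 and 2.61. The other MEF intervals lay 1.89 kb upstream (fold 3.11), in an intron 1.76 kb downstream of the gene start (fold 2.77), and 9.67 kb beyond the gene end (fold 2.72). The mESC sites were thus also MEF sites, and 3 MEF sites had no mESC interval over them. Within 100 kb of the gene start the lists were even, with 19 mESC and 19 MEF intervals against medians of 9 and 7 over all protein-coding genes. The stretch from 6 to 4 kb upstream, which holds a known Nanog enhancer, contained 0 intervals of either list. At the densities of all protein-coding territories, most stretches of 2 kb hold none.

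**Figure D2:**
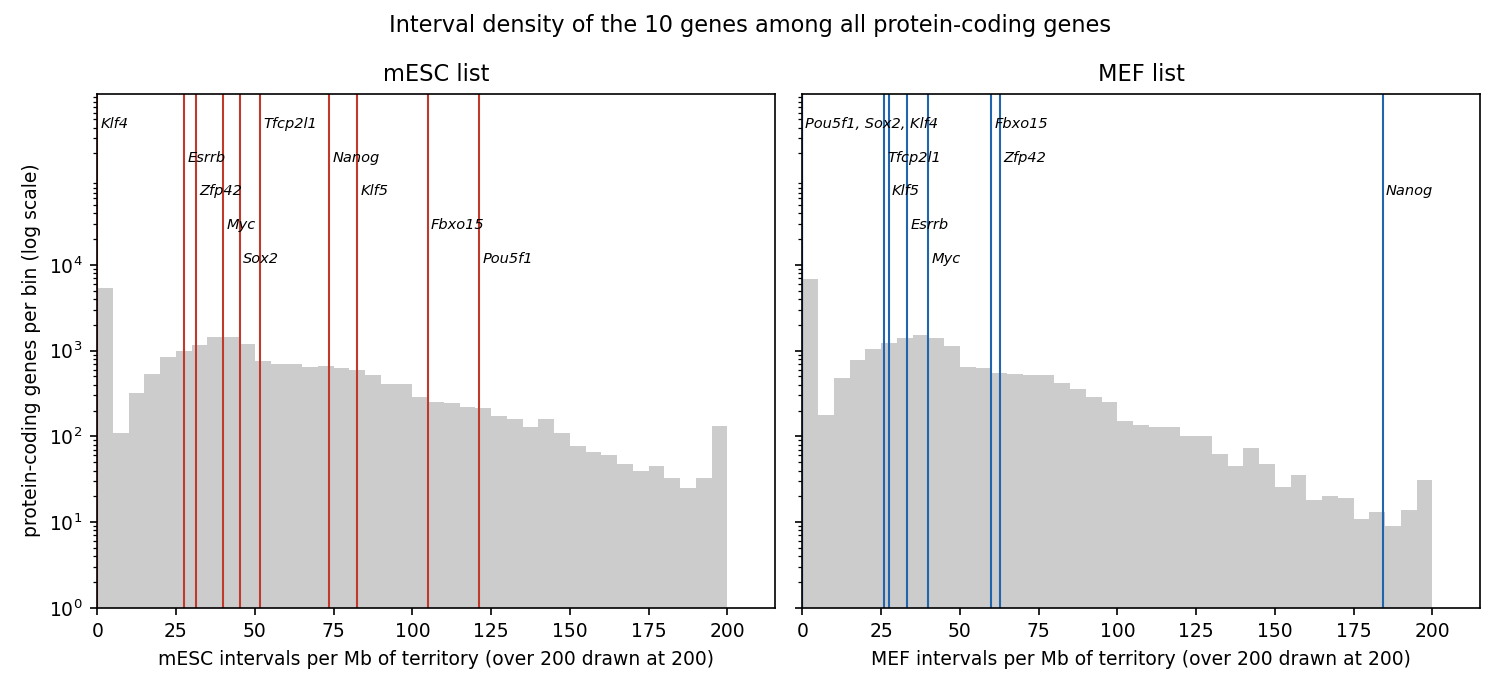
Intervals per Mb of territory for all 21938 protein-coding genes (grey histogram, log vertical axis, values over 200 drawn at 200) in the mESC list and the MEF list, with the 10 genes as coloured lines. Pou5f1 has the highest mESC density of the 10 at 121 per Mb, and Nanog at 184 per Mb stands far to the right in the MEF list. Both have short territories, and these densities rest on 3 and 5 intervals.

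Of the other reprogramming factors, Klf4 had no listed interval and Myc had 1 site in both lists. Klf4, a Krüppel-like zinc finger factor (chr4:55527143-55532466, minus strand), was the sole member with 0 mESC and 0 MEF intervals. Its territory is short, and among the 11779 protein-coding genes with territories of 20 to 40 kb, 28.2% had no interval of either list. The nearest site was an overlapping pair 45.2 kb upstream of the gene start, with a fold of 3.47 in the mESC list and 2.62 in the MEF list. The stretch from 50 to 70 kb downstream, where distal Klf4 enhancers are known, held another overlapping pair close to its edge. Its fold was 2.62 in the mESC list and 2.44 in the MEF list. At the densities of all protein-coding territories, a count of 1 per list in 20 kb is common.

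Myc, a basic helix-loop-helix factor that drives growth and division (chr15:61985391-61990374, plus strand), had an mESC interval at chr15:61996701-61997101 (fold 2.47) and a MEF interval at chr15:61996729-61997079 (fold 3.29). They form 1 site 6.53 kb beyond the gene end. It held B1 words and a KLF site in both listings. At 40.03 intervals per Mb in each list, Myc was denser than 49.2% of protein-coding genes in the mESC list and 61.7% in the MEF list.

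The factors of the wider naive network each had intervals in both lists. Esrrb, an orphan nuclear receptor with the longest body of the 10 (chr12:86361117-86521628, plus strand), had 5 mESC and 6 MEF intervals, most of them intronic. Per Mb these were 27.7 and 33.2, above 35% of protein-coding genes in the mESC list and 52.4% in the MEF list. The mESC folds ran between 2.12 and 3.05, and the MEF folds between 2.03 and 4.84. The interval of fold 4.84 was the intronic one 2.24 kb downstream of the gene start, over which no mESC interval lay. At chr12:86383401-86383601 the mESC interval had a fold of 3.05 and the overlapping MEF interval 2.78, the one pair of 9 in which the mESC fold was the higher.

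Klf5, a second Krüppel-like factor (chr14:99298691-99315036, plus strand), had 3 mESC intervals and 1 MEF interval. One mESC interval of 450 bp overlapped a coding exon (fold 2.42), and another overlapped the 3 prime UTR of a short transcript (fold 2.29). The third mESC interval, at chr14:99316496-99316989, had a fold of 2.37 and lay 1.71 kb beyond the gene end, where it overlapped the MEF interval. That MEF interval had a fold of 6.42, at the 98.9 percentile of the MEF list, and 86.8% of its bases were soft-masked as repeat. The overlapping mESC interval stood at the 45.7 percentile of its own list, so the site ranked near the top of the MEF list and near the middle of the mESC list.

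Tfcp2l1, a CP2-family factor induced by LIF and 2i (chr1:118627945-118685168, plus strand), had 4 mESC and 2 MEF intervals. Both MEF intervals overlapped an mESC interval. In the intron the folds were 2.13 in the mESC list and 2.26 in the MEF list, and beyond the gene end they were 2.20 and 2.40. The remaining mESC intervals lay in the 3 prime UTR (fold 2.04) and downstream (fold 2.06). Its densities of 51.8 and 25.9 per Mb exceeded those of 62.3% and 43.7% of protein-coding genes in the mESC and MEF lists, and all 6 folds were 2.40 or lower.

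The marker genes differed in number of intervals. Zfp42, which encodes the zinc finger protein REX1 (chr8:43295063-43306980, minus strand), had 1 mESC interval (fold 2.22) and 2 MEF intervals (folds 2.04 and 2.15), all beyond the gene end and none overlapping the other list. Fbxo15, an F-box gene that OCT4 and SOX2 activate (chr18:84934782-84981473, plus strand), had 7 mESC and 4 MEF intervals, the most mESC intervals of the 10. Its densities of 105 and 60.0 per Mb exceeded those of 89.9% and 79.0% of protein-coding genes in the mESC and MEF lists. The mESC folds ran between 2.01 and 2.97. In the MEF list, a 100 bp interval over a coding exon (chr18:84964187-84964287) had a fold of 5.14, and one of 150 bp starting 50 bp after its end had 4.08. The second of these overlapped an mESC interval of fold 2.71. The other MEF intervals, 1.38 kb upstream of the gene start and farther into the gene, had folds of 2.09 and 2.15.

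No member had an interval of either list within 1 kb of its gene start (0 of 10), where 8.41% of protein-coding genes had one. The smallest distances were 1.86 kb in the mESC list and 1.38 kb in the MEF list, both at Fbxo15. By any overlap with the basic gene annotation, 11 mESC intervals were intronic, 3 in a 3 prime UTR and 1 in a coding exon. By midpoint, 7 of the others lay downstream and 5 upstream. In the MEF list 10 were intronic, 1 in a coding exon, 6 downstream and 4 upstream. In the comprehensive annotation, both intervals of the Fbxo15 pair at chr18:84964337-84964487, counted as intronic here, overlapped a 3 prime UTR. So did the MEF interval at chr18:84964187-84964287, besides its coding exon. Density was higher in the flanks than in the gene bodies, at 60.0 against 47.3 per Mb in the mESC list and 50 against 34.7 per Mb in the MEF list. These are counts of few intervals, with no flank density of all protein-coding genes beside them, and the difference was not tested.

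Over all 10 territories the density was 52.2 mESC intervals per Mb (95% exact Poisson interval 34.4 to 76.0) and 40.6 MEF intervals per Mb (25.1 to 62.1). All protein-coding territories, summed gene by gene with overlapping stretches counted for each gene, had 48.3 and 36.9 per Mb. The ratio was 1.08 in the mESC list (0.713 to 1.57) and 1.10 in the MEF list (0.682 to 1.68). It lay below 1 in gene bodies alone (0.982 mESC and 0.934 MEF) and with flanks of 25 kb (0.991 and 0.969). Without Fbxo15 the mESC ratio was 0.920, and without Nanog the MEF ratio was 0.886. Kept to folds of at least 3, it was 0.378 in the mESC list and 1.81 in the MEF list. The mESC share of member intervals was 56.2% (95% exact binomial interval 41.2 to 70.5), and it was 56.2% of all intervals. These intervals cover counting error only.

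The design's test asked whether a gene's intervals were split between the lists other than at the genome-wide mESC share. Among the 3549 protein-coding territories that held 10 intervals or more, 0 passed an adjusted p of 0.05 (0% called) by the two-sided exact binomial test with Benjamini-Hochberg adjustment, and 30 had an unadjusted p under 0.05. Esrrb and Fbxo15 were the 2 members with at least 10 intervals. The exact binomial p was 0.550 for Esrrb (5 mESC and 6 MEF intervals, adjusted p = 1) and 0.765 for Fbxo15 (7 mESC and 4 MEF, adjusted p = 1). With 11 intervals neither gene could have been called. Had all 11 been MEF intervals, the exact binomial p would have been 1.13e-04 and the adjusted p 0.400. The lean to 1 list at Pou5f1 and Nanog, which had fewer than 10 intervals, is likewise a count and not a call.

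Overlap between the cell types was about as common at these genes as elsewhere. Of the mESC intervals, 9 of 27 overlapped a MEF interval, or 33.3% (95% exact binomial interval 16.5 to 53.96), against 36.6% of the whole mESC list. Of the MEF intervals, 9 of 21 overlapped an mESC interval, or 42.9% (21.8 to 66.0), against 47.3% of the whole MEF list. The 9 pairs lay at 6 genes and made 39 distinct sites of the 48 intervals. In 8 of the 9 pairs the authors' fold was higher in the MEF list, which was so for 45.1% of all 42911 overlapping pairs of the lists. The scaling of the folds between lists is not given, so this compares numbers and not silencing, and it was not tested.

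The authors' fold, read here as a ratio, is given with each interval. Member intervals had a median fold of 2.22 in the mESC list (2.01 to 3.43), where the whole list had 2.42. In the MEF list the median was 2.61 (2.03 to 6.42), where the whole list had 2.36. A fold over 3 was found in 2 of 27 mESC intervals, at Pou5f1 and Esrrb, against 22.5% of the list. In the MEF list it was found in 6 of 21, at Nanog, Myc, Esrrb, Klf5 and Fbxo15, against 18.6%. A fold over 4 was found in 0 of 27 mESC intervals and 4 of 21 MEF intervals, against 7.99% and 5.92% of the lists. Kept to folds of at least 3, the mESC share of member intervals was 25%, against 60.8% of all intervals. With 8 intervals left, that share rests on few sites.

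**Figure D3:**
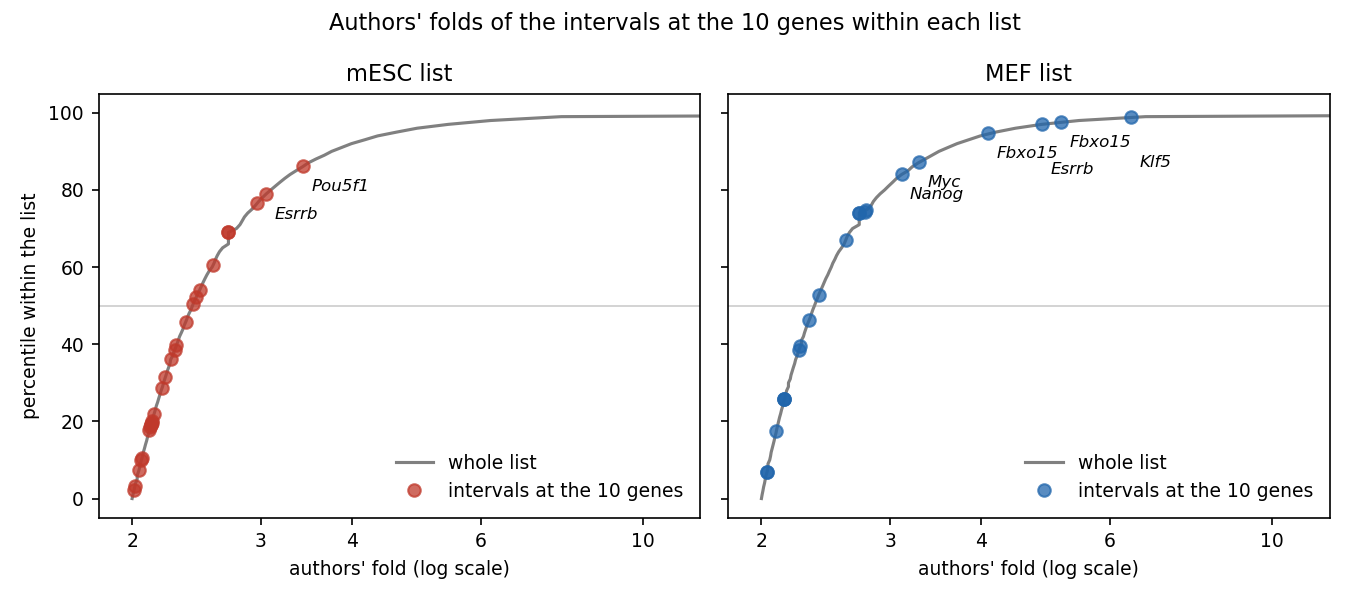
The authors' fold of each interval at the 10 genes (points, log horizontal axis) against its percentile within the mESC list or the MEF list (vertical axis), on the curve of the whole list. Intervals with a fold over 3 are named: 2 in the mESC list, at Pou5f1 and Esrrb, and 6 in the MEF list, the highest at Klf5.

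Many folds recur exactly. The fold of Sox2's mESC interval, 2.71, was the value of 4086 mESC intervals, 1 at Fbxo15 among them, and the fold 2.72 of a pair of Nanog MEF intervals was that of 3051 MEF intervals. A fold found in at least 100 intervals of its list was carried by 16 of 27 mESC and 11 of 21 MEF member intervals, against 60.7% and 58.3% of the lists. Among intervals of up to 100 bp these shares were 92.5% of the mESC list and 89.0% of the MEF list. Single folds of short intervals, such as 3.43 at Pou5f1, are therefore steps on a coarse scale. The depth behind them is unknown.

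MEF intervals at these genes held more repeat sequence than the MEF list as a whole, and the mESC mean was slightly below that of the mESC list. The difference was not tested. Bases soft-masked as repeat made up a mean of 36.6% of the mESC member intervals (40.9% in the whole mESC list) and 57.4% of the MEF member intervals (38.5% in the whole MEF list). More than 50% of the bases were masked in 9 of 27 mESC intervals (33.3%, against 36.5% of the mESC list) and 12 of 21 MEF intervals (57.1%, against 33.5% of the MEF list). In 300 bp windows centred on the intervals, the member means were 39.2% against 40.6% (mESC) and 49.2% against 38.3% (MEF). The share of windows masked over more than 50% turned in the mESC list, at 40.7% of member windows against 35.4%. In the MEF list it was 57.1% against 32.2%. In 200 bp tiles of the same territories that held no listed interval, the mean was 25.9%, and 18.7% of the tiles were masked over more than 50% of their bases. Mean GC content was 43.1% in mESC and 43.8% in MEF member intervals, against 40.3% and 40.1% in the lists and 46.7% in the tiles.

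At least 1 of the 3 B1 words was found in 8 of 27 mESC intervals (29.6%, against 10.4% of the mESC list) and 7 of 21 MEF intervals (33.3%, against 9.24% of the MEF list). The tiles without an interval had one in 8.25%. In windows of 300 bp centred on the intervals, which removes differences in length, the shares were 33.3% of mESC member windows against 12.6% of the list, and 38.1% of MEF member windows against 11.6%. The B1 words lay at 10 distinct sites of 7 genes: Pou5f1, Nanog, Myc, Esrrb, Klf5, Tfcp2l1 and Fbxo15. They were found in either interval of 5 of the 9 overlapping pairs, against 14.7% of all overlapping pairs of the lists. Because the words were chosen from these sequences, the counts are a description with no test. How reads from repeat copies were placed is not stated in the labels, and its part in these counts was not tested.

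**Figure D4:**
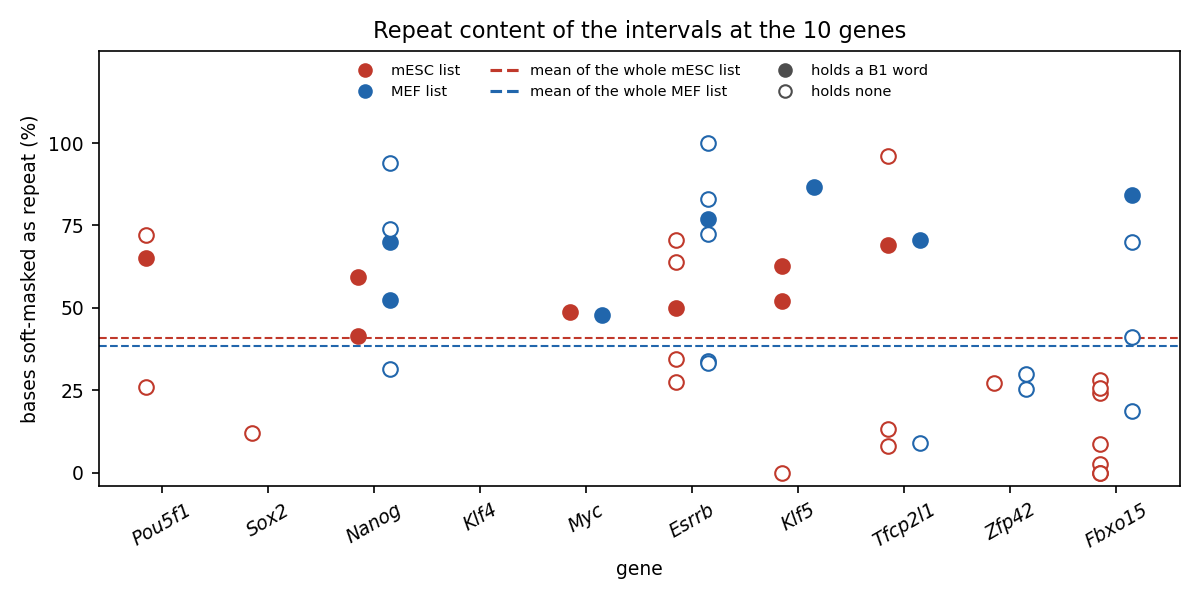
Share of bases soft-masked as repeat (vertical axis, %) in each interval of the 10 genes, with mESC points left of MEF points. Filled points hold at least 1 B1 word, and dashed lines are the means of the whole lists, 40.9% for mESC and 38.5% for MEF. Filled points occur at 7 genes and none at Sox2, Klf4 or Zfp42.

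Each site for a factor of the network was found in 0 to 3 member intervals of a list. The POU octamer ATGCAAAT, the site of OCT4 and its relatives, was found in 2 of 27 mESC intervals (7.41%) and 0 of 21 MEF intervals, against 1.87% and 1.82% of the lists and 1.56% of the tiles. Those 2 intervals were at Tfcp2l1 and Fbxo15. The SOX site CATTGTT was found in 1 mESC interval (Fbxo15, 3.70% of 27) and 1 MEF interval (Esrrb, 4.76% of 21), against 4.31% and 4.24% of the lists and 3.16% of the tiles. The KLF site GGGNGTGG was found in 2 mESC intervals (Myc and Zfp42, 7.41%) and 2 MEF intervals (Myc and Esrrb, 9.52%), against 7.65% and 6.53% of the lists and 7.45% of the tiles. The ESRRB site TCAAGGTCA was found in 0 intervals of either list, against 0.393% and 0.409% of the lists and 0.961% of the tiles.

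The MYC E-box CACGTG was found in 3 mESC intervals (11.1%) and 1 MEF interval (4.76%), all at Tfcp2l1 and Fbxo15, against 1.90% and 2.19% of the lists and 2.44% of the tiles. The core AAGATGGC shared by YY1 and REX1 was found in 2 mESC intervals (7.41%) and 1 MEF interval (4.76%), at the same genes, against 2.88% and 2.54% of the lists and 1.60% of the tiles. The AP-1 site TGANTCA, bound by JUN and FOS proteins, was found in 3 mESC intervals (Klf5, Tfcp2l1 and Fbxo15, 11.1%) and 1 MEF interval (Nanog, 4.76%), against 6.13% and 6.74% of the lists and 6.45% of the tiles. All were searched on both strands in whole intervals, and a match is a run of letters and not a shown binding site. The mESC member shares of the POU octamer, the E-box and the YY1 and REX1 core lay above those of the mESC list. So did that of the AP-1 site, so this was not particular to sites of the network's factors. Each of these mESC shares rests on 2 or 3 intervals, and this was not tested. The MEF member shares of the E-box and the core also lay above the MEF list. Both came from 1 MEF interval at Tfcp2l1, which overlapped an mESC interval. The MEF shares of the SOX and KLF sites lay above too, and those of the POU octamer, ESRRB and AP-1 sites below. In 300 bp windows the E-box and the core were each found in 0 MEF member windows, and in 2 and 3 mESC member windows.

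A list of 30 further genes, drawn up by name as pluripotency genes, was counted in the same way. Not all of them are factors of the network. Tcf3 (1 mESC and 1 MEF interval) and Tcf7l1 are separate genes in it. Summed gene by gene, the list had 83 mESC and 64 MEF intervals in 1.41 Mb. That was 58.7 and 45.2 per Mb, with an mESC share of 56.5%. The territories of Gdf3 and Dppa3 overlap, as do those of Dppa2 and Dppa4, so any shared interval or base was counted for each gene. Of the 30, 14 had more mESC intervals, 6 more MEF intervals, 7 equal numbers and 3 none. Tet1, which oxidises methylated cytosine, had the most in both lists with 14 mESC and 12 MEF intervals. Tcf7l1, a repressor of the network downstream of WNT, had 11 mESC and 3 MEF intervals. Rif1, a telomere and replication timing factor, had 5 mESC and 7 MEF intervals. None of these 3 passed the exact binomial test after Benjamini-Hochberg adjustment (adjusted p = 1 for each). Trim28, a corepressor, ranked next by number in the mESC list with 6 intervals, and Nr5a2, a nuclear receptor, in the MEF list with 4.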

How the data were processed

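Reporter RNA and input plasmid libraries were sequenced by the authors, who deposited 1 interval list for mESCs and 1 for MEFs, each with a fold (a linear ratio) per interval, per the file headers. The submitters' processing notes name Bowtie2, SAMtools and the build hg38, whereas mm10 is the build in the design text. With 0 intervals beyond an mm10 chromosome end in either list, mm10 was used. The divided libraries, scaling, caller and use of replicates are not given in these sources, and without counts the depth is unknown. Since 40.7% of MEF starts follow a multiple of 50 bp by 1, starts were read as counted from 1, uncertain by 1 bp.

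Territories came from GENCODE M21, and sequence and soft-masking from GRCm38.p6. Counting used Python 3.11.15, pandas 2.3.3 and pysam 0.24.0. The exact binomial test (scipy 1.17.1) was run over all protein-coding genes and was tried on simulated data. Exons, UTRs and introns were assigned by any overlap with the basic gene annotation. Distances, and upstream against downstream, use interval midpoints. All 10 members were named, with the top 3 of the other 30 genes in each list. The sequence rule took, for each gene, the intervals of up to 300 bp with the highest fold and nearest the gene start, leaving out UTRs, near-duplicates, Fbxo15 and some sequences that are not reported here. Members and lists were chosen with earlier results of these data known.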

Additional observations from a re-analysis of the deposited data

How the results depend on the processing

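Counting territories as the gene body alone left 15 mESC and 11 MEF intervals at the 10 genes. Keeping folds of at least 3 left 2 mESC and 6 MEF intervals, an mESC share of 25%, and density ratios to all protein-coding territories of 0.378 in the mESC list and 1.81 in the MEF list. With both lists kept to such folds, 0 of the mESC and 0 of the MEF member intervals overlapped the other list, against 22.9% and 35.7% of the lists. The cause was not tested beyond the loss of intervals that these settings make. The other alternatives kept counts within 1.5 times, among them flanks of 5 and 25 kb, midpoints in place of any overlap, merging within 50 bp, starts counted from 0 and an overlap of 50% of both intervals. Leaving out 1 gene at a time gave 20 to 27 mESC and 15 to 21 MEF intervals, and mESC shares of 53.3% to 60.98%. Each factor motif was found in 0 to 3 member intervals of a list in 300 bp windows too. Lowering the minimum to 5 intervals called 0 of 8247 genes, with 68 at an unadjusted p under 0.05. No paired analysis was possible because the analysed values are 1 list per cell type with no value per library.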

Other observations

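Near Sox2, 3 MEF intervals of 50 bp lay 85.9, 86.2 and 86.5 kb downstream of the gene start, with starts 300 bp apart at chr3:34736301, chr3:34736601 and chr3:34736901. Their folds were 3.89, 2.96 and 2.81, and 100%, 64% and 100% of their bases were soft-masked as repeat. No mESC interval overlapped them. These were chosen after their values were seen.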
